A study of Mus musculus with 15 samples.

Results

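A set of 9 genes of glucose uptake, glycolysis and the response to low oxygen was read across mouse embryonic stem (ES) cells that differ in Srf, the gene of serum response factor. The genes are Slc2a1, Slc2a3, Pfkl, Pfkp, Aldoa, Pgk1, Ldha, Ak4 and Ddit4. They were given by name with no threshold on their values, but with earlier results of these data known. Shares of all probe sets set beside them below are therefore a description. All 9 of 9 had at least 1 probe set (a set of short probes that reads 1 transcript), among 8220 genes named on the array. They gave 13 probe sets, 2 each for Slc2a3, Pfkp, Aldoa and Ak4, and 13 of 13 passed the filter on dim signals.

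Total RNA from 3 ES lines was measured at 0, 10, 30, 60 and 180 min of fetal bovine serum (FBS) on Affymetrix MGU74A arrays, 1 array per line and time, 15 in all. The lines were E14wt, called wild-type here, E100-/-, called Srf-null, and E100-/- rescue, called rescue. How the rescue was made, whether a line is 1 clone, and whether cells were held without serum beforehand is left unsaid by the labels. Wild-type is a different line from the other pair, so an effect of Srf and other differences between lines cannot be told apart. With 1 array per line and time, a line's time points served as its replicates (n = 5, or n = 4 without 0 min). For lines, the p-values therefore measure the spread over time points that is left after a time term shared by the lines, pooled over all 3 lines. They do not measure the spread between separately made lines or cultures.

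Glycolysis splits glucose to pyruvate in the cytoplasm and yields ATP without oxygen. Glucose enters through transporters of the SLC2A (GLUT) family, phosphofructokinase commits it to the pathway, and lactate dehydrogenase turns pyruvate into lactate. Under low oxygen the factor HIF-1 raises many of these genes through the hypoxia response element, whose core is ACGTG or, with G in first place, GCGTG. Pluripotent cells are known for a high rate of glycolysis. Ak4, a mitochondrial adenylate kinase, and Ddit4 (REDD1), an inhibitor of the growth kinase complex mTORC1, are among the other transcripts that low oxygen is known to raise.

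The RefSeq promoter table (GRCm38.p6) held a promoter for 8 of 9 genes, 14 promoters in all, and none for Slc2a3. ACGTG was searched on both strands over 300 bases, from 250 before to 50 after the start, where CACGTG holds it on both strands and counts as 1 place. It stood in 7 of 14 promoters, against 19.6% of 32851 promoters in the table. In at least 1 promoter it was found for 6 of 8 genes, namely Slc2a1, Aldoa, Pgk1, Ldha, Ak4 and Ddit4, against 21.8% of 27025 genes. Promoters of 1 gene can overlap: 2 of the 7 are of Aldoa and share a single place, and by position there were 9 distinct places in all. The wider core, ACGTG or GCGTG on either strand, was in 13 of 14 promoters and in 8 of 8 genes, Pfkl and Pfkp included, against 43.8% of all promoters and 46.7% of genes. G or C made up 52.7% to 72.7% of the bases of the 14 promoters. The shares of all promoters and genes were matched neither for this nor for the number of promoters per gene. The upstream 250 bases of 4 genes are shown as examples of the promoters searched; capitals mark ACGTG on either strand, which Slc2a1, Pgk1 and Ddit4 hold and Pfkl does not, and GCGTG is left in lower case. Slc2a1 is chr4:119108495-119108744 on the plus strand, Pgk1 is chrX:106186850-106187099 on the plus strand, Ddit4 is chr10:59951771-59952020 on the minus strand and Pfkl is chr10:78009808-78010057 on the minus strand.
Slc2a1: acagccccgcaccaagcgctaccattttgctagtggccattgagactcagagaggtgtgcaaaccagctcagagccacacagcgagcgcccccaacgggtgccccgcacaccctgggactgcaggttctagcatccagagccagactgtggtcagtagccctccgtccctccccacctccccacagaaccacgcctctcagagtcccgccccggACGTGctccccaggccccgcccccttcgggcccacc
Pgk1: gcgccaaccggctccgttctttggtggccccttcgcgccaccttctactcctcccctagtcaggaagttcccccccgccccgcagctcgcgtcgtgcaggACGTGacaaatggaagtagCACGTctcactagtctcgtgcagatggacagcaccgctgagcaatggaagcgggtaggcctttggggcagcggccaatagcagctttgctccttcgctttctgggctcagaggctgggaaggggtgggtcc
Ddit4: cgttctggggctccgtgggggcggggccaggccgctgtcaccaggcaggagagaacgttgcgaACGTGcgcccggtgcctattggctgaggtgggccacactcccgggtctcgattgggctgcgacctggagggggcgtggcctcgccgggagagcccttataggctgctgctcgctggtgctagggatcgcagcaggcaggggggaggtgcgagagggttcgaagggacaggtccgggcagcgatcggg
Pfkl: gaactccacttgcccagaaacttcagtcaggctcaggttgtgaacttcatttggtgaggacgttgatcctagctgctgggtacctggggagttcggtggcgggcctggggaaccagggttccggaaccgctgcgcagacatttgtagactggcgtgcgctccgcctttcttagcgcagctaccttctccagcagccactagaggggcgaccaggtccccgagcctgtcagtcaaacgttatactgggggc
In Slc2a1 the match lies at bases -36 to -32 from the start, and in Ddit4 at -187 to -183. Pgk1 holds it at 2 places, at -150 to -146 and, on the opposite strand, at -131 to -127. A promoter of Ldha held 3 places, 2 of them as CACGTG. The CArG box, the site that SRF binds (CC, 6 of A or T, GG), was in 1 of 14 promoters, that of Ldha at bases 8 to 17 after the start, against 1.63% of all promoters. A match describes letters, not binding.

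Some arrays stood apart before any of these genes was read. Beta-actin is read by control probe sets at either end of the transcript, and the ratio of the 3' signal over the 5' signal, higher in degraded RNA, was 7.53 on wild-type 0 min and 4.22 on rescue 0 min. It was 3.83 on Srf-null 60 min and 0.847 to 2.94 on the other 12 arrays. Igf2, a fetal growth factor gene, was below 0 on all 5 Srf-null arrays and also on the 0 min arrays of both other lines, and 2640 to 10240 on the remaining wild-type and rescue arrays. The Y-linked gene Eif2s3y gave 134 at 0 min and 1435 to 2078 later in the wild-type line. It gave 104 to 290 on the Srf-null and 309 to 502 on the rescue arrays. So 2 arrays labelled 0 min did not match the rest of their line. By both genes the wild-type 0 min array read like the Srf-null arrays, and whether arrays were exchanged was not tested. Srf has no probe set in the annotation used, so the genotype could not be checked by its own transcript. The lines were therefore compared over 15 arrays and again over the 12 arrays from 10 to 180 min.

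The cells carried the ES markers. All 12 of 12 listed ES genes were measured, and their summed level was 74861 to 117055 in wild-type, 97824 to 123113 in Srf-null and 80608 to 101756 in rescue arrays. The 14 feeder fibroblast markers summed to 13826 to 20494, 14880 to 17823 and 17317 to 19712 in the same order. Of these, 9 to 12 were above the floor on each wild-type or Srf-null array and 8 to 12 on each rescue array. Col1a1, Col6a1, Vim, Fn1, Sparc, Fbln2 and Timp1 were above it on all 15 arrays, and Col1a2 on 0. The 10 endoderm markers summed to 3815 to 6343 over all arrays, with 6 to 8 of them above the floor per array. Dab2, Lamb1 and Sparc were above it on all 15 arrays, and Apoa1 and Hnf4a on 0. The 5 red-cell markers summed to 1152 to 5400. In rescue against Srf-null cells over 10 to 180 min, 3 of 12 ES markers had an adjusted p under 0.05 by limma, against 2.25% of all probe sets. These were Fgf4, Klf4 and Nr0b1, which fell (log2 -0.64 ± 0.11, -0.73 ± 0.12 and -0.67 ± 0.12). Of the 12, 1 was above 0 there (median -0.35). Over 15 arrays 0 of 12 were above 0 (median -0.39) and 1 passed, against 0.22% of all. The part of the ES markers in the results below was not tested. In bulk RNA, fewer cells of a type and less RNA per cell cannot be told apart.

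Values below are intensities after quantile normalization, in arbitrary units, and levels of different probe sets are not set against each other. Where a gene has 2 probe sets, the one with the higher mean signal is called the main one, for naming only. A difference is on the log2 scale with its standard error, from limma's moderated test over 9558 probe sets. A call is a Benjamini-Hochberg adjusted p under 0.05 over all of them.

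Slc2a1 encodes GLUT1, the widespread basal glucose transporter. Its signal rose in rescue cells against wild-type over 10 to 180 min. In wild-type cells it was 1443, 2179, 3189, 2208 and 2421 at 0, 10, 30, 60 and 180 min. Srf-null cells gave 5288, 3302, 3111, 3095 and 3920, and rescue cells 2287, 4830, 4554, 5029 and 4641. From 10 min on, every rescue array was above every array of the other lines, while wild-type and Srf-null met at 30 min. The 0 min arrays did not follow this order, with Srf-null highest and rescue between the others. Over 10 to 180 min the rescue mean exceeded the wild-type mean by 0.95 ± 0.13 (1.93-fold, adjusted p = 0.0301, n = 4 and 4). There 2 of 13 probe sets of the 9 genes were called, against 0.398% of all probe sets. Over 15 arrays the difference was 0.89 ± 0.25 (adjusted p = 0.353), and none of the 13 probe sets was called, against 0% of all, although 9 of 13 had an unadjusted p under 0.05, as did 693 of 9558. Rescue against Srf-null gave 0.51 ± 0.13 over 10 to 180 min (adjusted p = 0.117) but 0.17 ± 0.25 over 15 arrays (adjusted p = 0.868). Srf-null against wild-type gave 0.44 ± 0.13 (adjusted p = 0.271) and, over 15 arrays, 0.72 ± 0.25 (adjusted p = 0.411). Leaving out 1 of the 12 arrays ended the Slc2a1 call for 10 of them, all but wild-type 30 min and Srf-null 180 min, with differences of 0.88 to 1.10 and adjusted p of 0.0167 to 0.146.

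**Figure D1:**
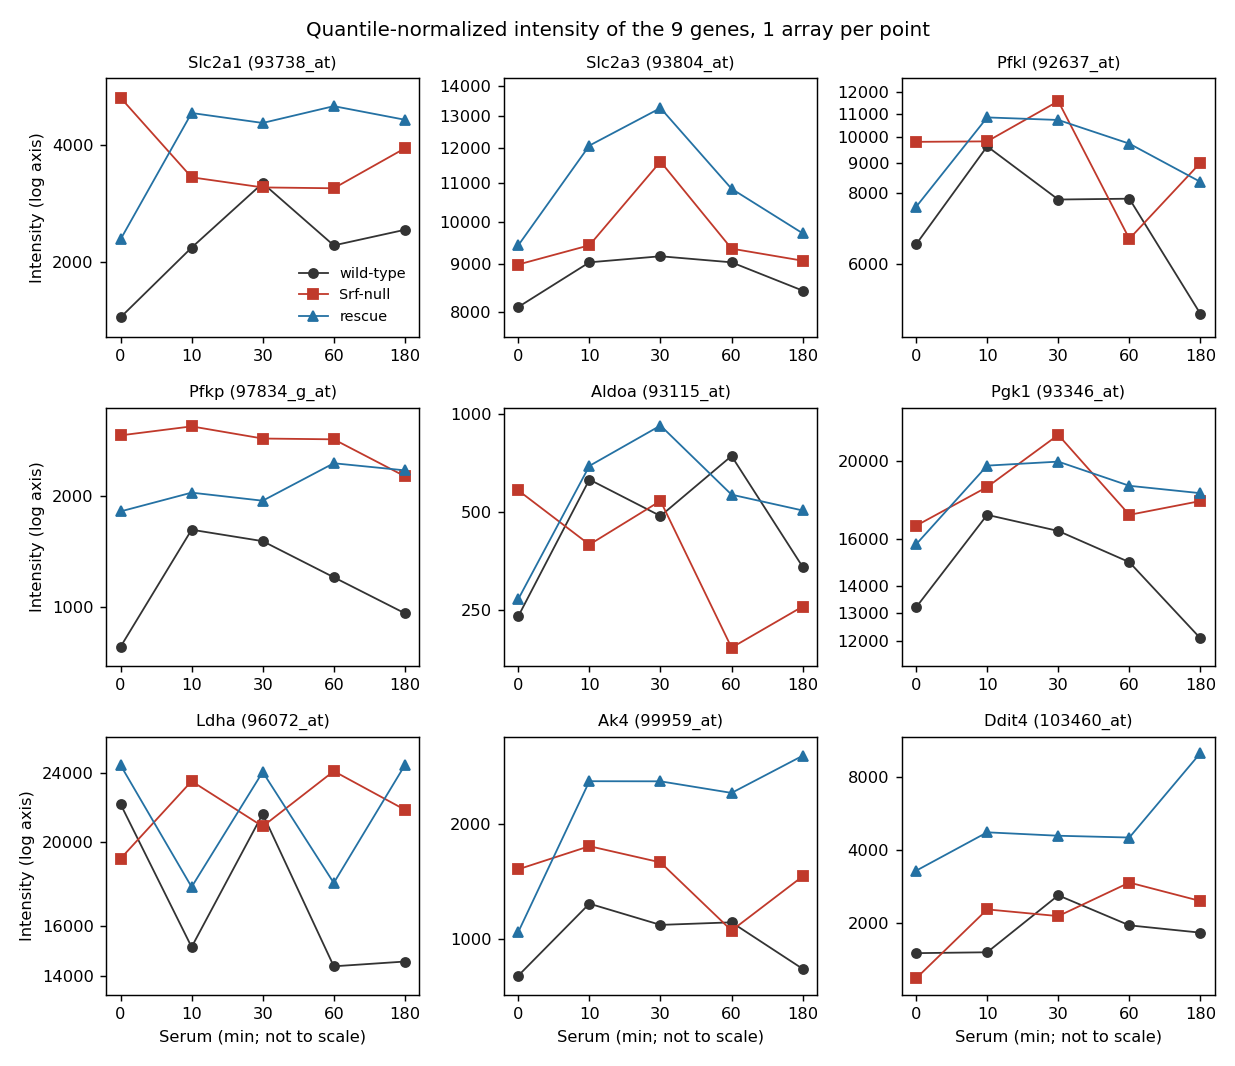
Quantile-normalized intensity (log axis) of the 9 genes, each by its brightest probe set, against minutes of serum (equally spaced), 1 array per point, with lines joining the arrays of a cell line. Rescue lies above the other lines for Ddit4 at all 5 times and for Slc2a1 and Ak4 from 10 min on, wild-type lies below both for Pfkp, and Ldha alternates between arrays.

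Slc2a3 encodes GLUT3, a high-affinity transporter. Its main probe set gave 8094, 9042, 9180, 9042 and 8430 in wild-type, 8993, 9433, 11611, 9355 and 9079 in Srf-null and 9433, 12082, 13260, 10853 and 9718 in rescue cells, in order of time. All rescue arrays were above all wild-type arrays, and the range of Srf-null overlapped both. The difference of rescue from wild-type was 0.33 ± 0.10 over 15 arrays and 0.35 ± 0.09 over 10 to 180 min, which did not pass (adjusted p = 0.429 and 0.181). Srf-null against wild-type gave 0.14 ± 0.10 and 0.14 ± 0.09, and rescue against Srf-null 0.19 ± 0.10 and 0.22 ± 0.09, none past the threshold. In each line the highest value was at 30 min. The second probe set gave 103 in wild-type, a value below 0 in Srf-null and 604 in rescue cells at 0 min, and 384 to 2044 on the later arrays. Its 2 lowest readings were thus on the 0 min arrays of wild-type and Srf-null cells, where actin ratios were 7.53 and 2.94. Rescue 0 min and Srf-null 60 min gave 604 and 918 at higher ratios than the latter, 4.22 and 3.83. The next lowest reading, 384 on rescue 180 min, stood at a ratio of 1.42. The part of RNA quality was not tested. Between both probe sets the correlation over 15 arrays was 0.59, so they describe Slc2a3 differently in part.

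Phosphofructokinase, which phosphorylates fructose 6-phosphate, is read here by the liver-type gene Pfkl and the platelet-type gene Pfkp. Pfkp rose in Srf-null against wild-type cells by 2 probe sets over 10 to 180 min, the only member called in this contrast. By the main probe set, wild-type cells gave 779, 1618, 1506, 1203 and 961, Srf-null cells 2913, 3081, 2856, 2842 and 2257, and rescue cells 1813, 2038, 1938, 2448 and 2342. Wild-type was below both other lines on every array, and Srf-null was above rescue except at 180 min. By the second the values were 746 to 1445, 2004 to 3091 and 1611 to 2232 in the same order of lines. The probe sets correlated at 0.97 over 15 arrays, and as both were designed from the same sequence record they are not independent evidence. Over 10 to 180 min Srf-null exceeded wild-type by 1.08 ± 0.16 (2.12-fold, adjusted p = 0.0471) and 0.98 ± 0.14 (1.97-fold, adjusted p = 0.0428), n = 4 and 4 by limma. Those 2 calls among 13 stood against 0.324% of all probe sets. Over 15 arrays the differences were 1.25 ± 0.18 and 1.19 ± 0.20 (adjusted p = 0.118 for each by limma). None of the 13 was called there, against 0% of all probe sets, with 6 of 13 and 916 of 9558 at an unadjusted p under 0.05. Ranges of Srf-null and wild-type did not overlap for 2 of 13 probe sets over 15 arrays, both of Pfkp, against 1.46% of all, and for the same 2 over 10 to 180 min, against 5.79%.

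Rescue cells lay between both for Pfkp. They exceeded wild-type by 0.85 ± 0.18 and 0.83 ± 0.20 over 15 arrays, and differed from Srf-null by -0.40 ± 0.18 and -0.36 ± 0.20, and none of these passed (adjusted p = 0.20, 0.265, 0.544 and 0.629 by limma). Over 10 to 180 min rescue exceeded wild-type by 0.75 ± 0.16 and 0.76 ± 0.14 and differed from Srf-null by -0.33 ± 0.16 and -0.22 ± 0.14, again without a call (adjusted p = 0.134, 0.0874, 0.424 and 0.566 by limma). The calls of Pfkp lay close to the threshold and were mostly lost when 1 array, of any line, was left out. Without any 1 of the 12 arrays, the main probe set missed the threshold (adjusted p = 0.0515 to 0.189, difference 0.97 to 1.18), and the second passed only without wild-type 180 min (0.83, adjusted p = 0.0497). Over 15 arrays, both probe sets passed when the Srf-null 0 min array was left out (1.13 and 1.01, adjusted p = 0.0391 each).

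Pfkl gave 6493, 9638, 7779, 7805 and 4906 in wild-type, 9815, 9834, 11564, 6639 and 9020 in Srf-null and 7551, 10831, 10721, 9744 and 8353 in rescue cells. The ranges of the lines overlapped. Pfkl was 0.37 ± 0.16 higher in Srf-null and 0.39 ± 0.16 higher in rescue than in wild-type cells over 15 arrays, without a call (adjusted p = 0.495 and 0.637 by limma). The differences over 10 to 180 min were 0.31 ± 0.17 and 0.43 ± 0.17 (adjusted p = 0.498 and 0.466). The wild-type line therefore had the lowest mean of both phosphofructokinase genes, with a call for Pfkp against Srf-null only.

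**Figure D2:**
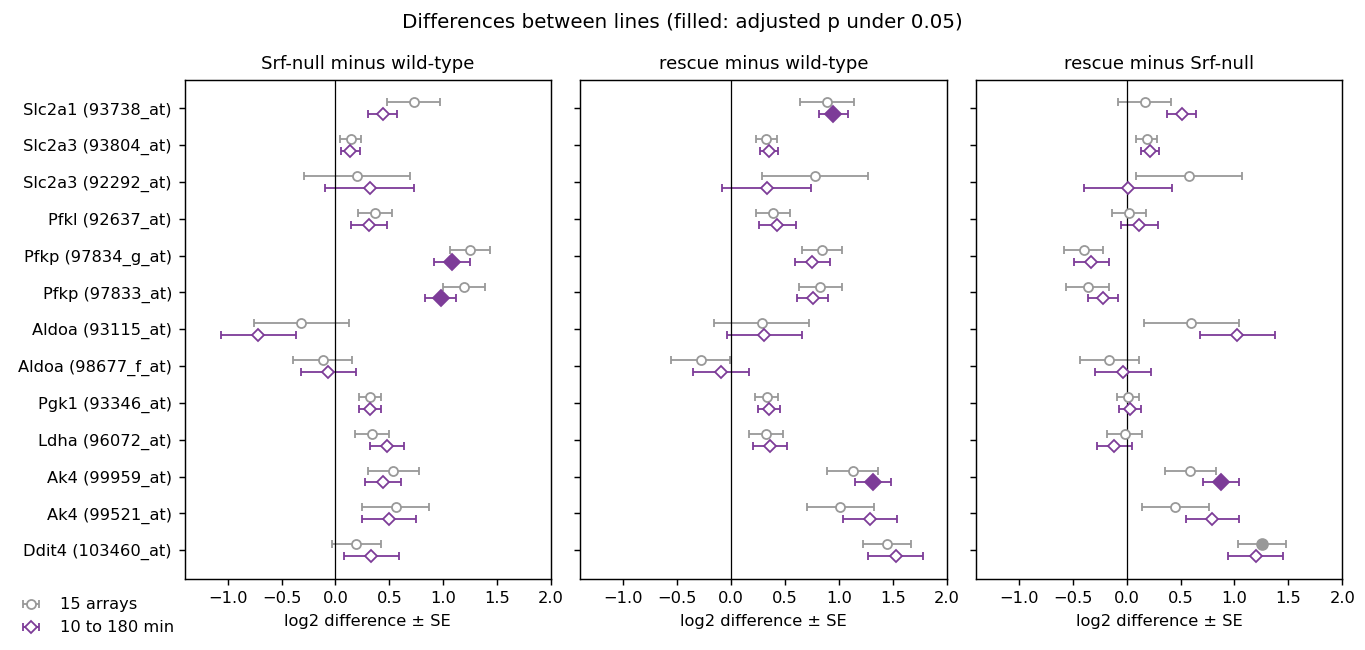
Difference between lines (log2, with its standard error) for the 13 probe sets over 15 arrays (circles) and over the 12 arrays from 10 to 180 min (diamonds), with filled symbols for an adjusted p under 0.05. Most values against wild-type lie right of 0, and the filled ones belong to Pfkp, Slc2a1, Ak4 and Ddit4.

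Aldoa encodes aldolase A, which splits fructose 1,6-bisphosphate. Its main probe set gave 240, 628, 486, 742 and 339 in wild-type, 582, 397, 541, 192 and 257 in Srf-null and 270, 692, 920, 565 and 505 in rescue cells. Its lines overlapped, and it was the gene with a lower mean in Srf-null than in wild-type cells (-0.72 ± 0.35 over 10 to 180 min, adjusted p = 0.451). Over 15 arrays that difference was -0.32 ± 0.44 (adjusted p = 0.814), within 1 standard error of 0. Rescue against Srf-null gave 1.03 ± 0.35 and 0.60 ± 0.44 over the same sets of arrays (adjusted p = 0.224 and 0.732). Across 15 arrays its log2 signal correlated with the actin ratio at -0.80, and the arrays with the 3 highest ratios gave 240, 270 and 192, 3 of the 4 lowest values. The second probe set was above the floor on 9 of 15 arrays, ranged from below 0 to 295 and correlated with the main one at -0.17, so Aldoa was not read alike by both. Rescue against wild-type gave -0.28 ± 0.27 over 15 arrays and -0.10 ± 0.26 over 10 to 180 min by the second. The main one gave 0.28 ± 0.44 and 0.31 ± 0.35, none past the threshold.

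Pgk1 encodes phosphoglycerate kinase, the first ATP-forming step. It gave 13192, 17155, 16388, 14998 and 12082 in wild-type, 16633, 18567, 21526, 17155 and 17841 in Srf-null and 15774, 19728, 19953, 18629 and 18243 in rescue cells. At each of the 5 times both other lines were above wild-type. Srf-null exceeded wild-type by 0.32 ± 0.10 and rescue by 0.33 ± 0.10 over 15 arrays, and neither passed (adjusted p = 0.397 and 0.474). Over 10 to 180 min the differences were 0.32 ± 0.10 and 0.35 ± 0.10 (adjusted p = 0.286 and 0.285 by limma). Srf-null and rescue differed by 0.01 ± 0.10, less than the spread over time.

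Ldha encodes the muscle-type subunit of lactate dehydrogenase. It gave 22096, 15132, 21526, 14379 and 14562 in wild-type, 19121, 23477, 20828, 24110 and 21767 in Srf-null and 24499, 17741, 24054, 17932 and 24499 in rescue cells. Quantile normalization gives equal ranks equal values, which is why 24499 stands at 2 times. Wild-type and rescue cells were low at 10 and 60 min and high at 0 and 30 min, while Srf-null cells were higher at 10 and 60 min than at 0 and 30 min. The 4 low arrays at 10 and 60 min had actin ratios of 0.847 to 0.989 and deposited trimmed means of 1012 to 1439, which include the 3 highest trimmed means of the 15 arrays, and their part in the result was not tested. Wild-type 180 min was as low (14562) with a ratio of 2.11 and a trimmed mean of 452, the second lowest of the 15. Mean Ldha was 0.34 ± 0.16 higher in Srf-null and 0.32 ± 0.16 higher in rescue than in wild-type cells over 15 arrays (adjusted p = 0.519 and 0.697), and 0.48 ± 0.16 and 0.36 ± 0.16 higher over 10 to 180 min (adjusted p = 0.294 and 0.505 by limma).

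Ak4 rose in rescue cells against both other lines over 10 to 180 min by its main probe set. Wild-type cells gave 804, 1238, 1090, 1107 and 837, Srf-null cells 1521, 1748, 1586, 1053 and 1458, and rescue cells 1045, 2580, 2579, 2405 and 3006. From 10 min on every rescue array was above every other array, while the rescue 0 min array lay below that of Srf-null. Rescue exceeded wild-type by 1.32 ± 0.17 (2.49-fold, adjusted p = 0.0200) and Srf-null by 0.87 ± 0.17 (1.83-fold, adjusted p = 0.0378), n = 4 and 4 by limma. In rescue against Srf-null over these arrays 1 of 13 probe sets was called, against 2.25% of all probe sets. Over 15 arrays the differences were 1.13 ± 0.24 and 0.59 ± 0.24 (adjusted p = 0.189 and 0.451 by limma), and the first passed when the rescue 0 min array was left out (1.36, adjusted p = 0.0142). The second probe set gave 470 to 1106 in wild-type, 859 to 1227 in Srf-null and 642, 2110, 1735, 1457 and 1922 in rescue cells. It correlated with the main one at 0.90, and its differences of 1.29 ± 0.25 and 0.80 ± 0.25 over 10 to 180 min did not pass (adjusted p = 0.0937 and 0.184).

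The Ak4 calls were also mostly lost when 1 array was left out. Against wild-type the call ended without any 1 of 9 arrays (the 4 wild-type arrays, the 4 rescue arrays and Srf-null 30 min), with differences of 1.17 to 1.43 and adjusted p of 0.0348 to 0.119. Against Srf-null it ended for 10 of 12 arrays, all but wild-type 60 and 180 min, with differences of 0.74 to 0.97 and adjusted p of 0.0275 to 0.143.

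Ddit4 rose in rescue against Srf-null cells over 15 arrays. Its signal was 1507, 1519, 2605, 1961 and 1829 in wild-type, 1186, 2280, 2140, 2940 and 2468 in Srf-null and 3289, 4733, 4581, 4504 and 10028 in rescue cells. Each of the 5 rescue arrays, 0 min included, was above all 10 arrays of the other lines. The difference from Srf-null was 1.25 ± 0.22 (2.38-fold, adjusted p = 0.0477, n = 5 and 5), the 1 call among 13 probe sets, against 0.22% of all. From wild-type it was 1.45 ± 0.22 (2.73-fold, adjusted p = 0.0735), and over 10 to 180 min the differences were 1.20 ± 0.25 and 1.53 ± 0.25 (adjusted p = 0.0571 and 0.0585 by limma), none past the threshold. Srf-null and wild-type differed by 0.19 ± 0.22 over 15 arrays (adjusted p = 0.772), with overlapping values. Without the rescue 180 min array, which held the value of 10028, rescue exceeded Srf-null by 1.03 ± 0.20 (adjusted p = 0.131). The call was kept without wild-type 0 min, wild-type 180 min or rescue 0 min and ended without any 1 of the other 12 arrays (differences of 1.03 to 1.38, adjusted p of 0.0362 to 0.178 over all 15).

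Read by 1 probe set a gene, 9 of 9 genes had a higher mean in rescue than in wild-type cells over 15 arrays and over 10 to 180 min (medians 0.39 and 0.43), where 49.7% and 48.6% of all probe sets were higher (medians 0). In Srf-null against wild-type cells 8 of 9 were higher, Aldoa being lower, with medians of 0.34 and 0.33, where 51.8% and 51.9% of all probe sets were higher and the medians were 0.02. These contrasts share the wild-type arrays, and the genes were chosen with earlier results of these data known, so the counts describe and do not test. In rescue against Srf-null cells 7 of 9 were higher, Pfkp and Ldha being lower, with medians of 0.17 and 0.22. With arrays brought to 1 shared median instead, the median of all probe sets itself moved to -0.28 for Srf-null against wild-type over 15 arrays and to -0.31 over 10 to 180 min. Then 6 and 7 of 9 genes were above 0 (Slc2a3 and, over 15 arrays, Ddit4 turned lower), but 8 of 9 were above the median of all. For rescue against wild-type cells, 8 of 9 were then higher over 15 arrays (Ldha turned lower) and 9 of 9 over 10 to 180 min. For rescue against Srf-null cells 6 and 8 of 9 were then higher (Pgk1 turned lower over 15 arrays, and Ldha higher over 10 to 180 min), with 5 and 6 of 9 above the median of all, itself at 0.15 and 0.24. The ranges of rescue and wild-type did not overlap for 8 of 13 probe sets over 10 to 180 min, against 5.72% of all, and for 4 of 13 over 15 arrays, against 1.58%. Between rescue and Srf-null they did not overlap for 4 of 13 over 10 to 180 min, against 9.32%, and for 1 of 13 over 15 arrays, against 2.19%.

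Across the 15 arrays the genes varied together to different degrees, as a description over arrays that share lines and array quality. Of the 36 pairs among the 9 genes, 35 had a correlation above 0, with a median of 0.57. Pfkl and Pgk1 were the closest pair at 0.90. Ak4 and Pgk1 had the highest median correlation with the other 8, 0.73 and 0.72, and Ldha the lowest, 0.21, with -0.38 against Aldoa.

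**Figure D3:**
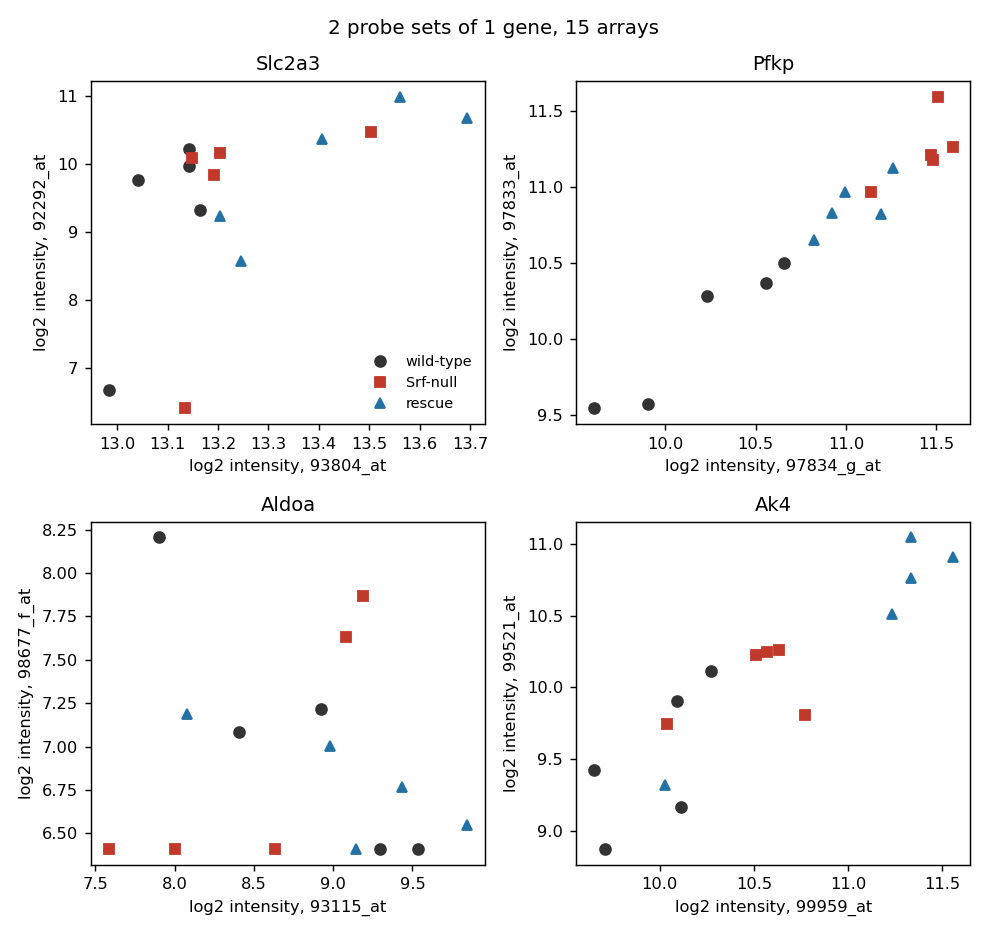
Log2 intensity of the 2 probe sets of Slc2a3, Pfkp, Aldoa and Ak4 against each other, 1 point per array, by line. Points follow a line for Pfkp (r = 0.97) and Ak4 (r = 0.90), less so for Slc2a3 (r = 0.59) and not for Aldoa (r = -0.17), where the second probe set lies at the floor on 6 arrays.

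No difference with serum passed the threshold for any of the 9 genes. The early response set 30 and 60 min against 0 and 10 min, and the late response set 180 min against the same baseline. That baseline includes the wild-type and rescue 0 min arrays, which did not match the rest of their line. For serum, the p-values measure the spread between 0 and 10 min and between 30 and 60 min within lines, not between cultures. For the mean of the lines, 0 of 13 probe sets were called early, against 0% of all, and 0 of 13 late, against 0.0523%. With so few calls among all probe sets, these counts say little about the 9 genes. By limma 1 of 13 had an unadjusted p under 0.05 in each, as did 243 and 387 of 9558. It was Ddit4 in both, with 0.46 ± 0.20 early (adjusted p = 0.995) and 0.74 ± 0.24 late (adjusted p = 0.867 by limma). Within lines, the late Ddit4 difference was 0.27 ± 0.41 in wild-type, 0.59 ± 0.41 in Srf-null and 1.35 ± 0.41 in rescue cells, each resting on 1 array at 180 min. Over the 11 probe sets above the floor on all 15 arrays, early differences ran from 0.00 to 0.46 and late ones from -0.31 to 0.74.

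Nor did the serum response of these genes differ between lines past the threshold. Srf-null against wild-type gave 0 of 13 calls early, against 0%, and 0 of 13 late, against 0.0314%. Srf-null against rescue gave 0 of 13 early and 0 of 13 late, against 0.0105% in each. By limma 0 of 13 had an unadjusted p under 0.05 in these 4 tests, as against 597, 736, 791 and 578 of 9558. The largest early differences between responses were those of Slc2a1, -1.01 ± 0.55 against wild-type and -0.96 ± 0.55 against rescue, and of Aldoa (main probe set), -1.21 ± 1.08 and -1.31 ± 1.08, apart from the second probe set of Slc2a3, whose standard error was 1.89. At this error a difference of that size in Slc2a1 could not be told from 0.

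Of 156 single steps against the 10 min array of the same line, 16 were of 2-fold or more, 11 of them at 0 min. In rescue cells, 0 min was lower 2.11-fold for Slc2a1 and 2.47-fold for Ak4, and in wild-type cells 2.08-fold for Pfkp, by their main probe sets. Aldoa was lower 2.62-fold and 2.56-fold at 0 min in wild-type and rescue cells by its main probe set. By its dim second probe set it was higher 3.47-fold and 1.33-fold, with the wild-type 10 min value at the floor. The wild-type and rescue 0 min arrays have the highest actin ratios, 7.53 and 4.22, and the part of RNA quality in these steps was not tested. Srf-null cells had Slc2a1 1.60-fold higher at 0 min than at 10 min. Ddit4 at 180 min in rescue cells was 2.12-fold above its 10 min array.

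The other genes of the pathway were read by lists. Of 29 further glycolysis genes, 22 were measured and 19 tested, and none was called in the 12 comparisons (0 of 228 tests), with 11 tests (4.82%) at an unadjusted p under 0.05 by limma, against 8.03% of the tests of all probe sets in those comparisons. Their median difference was -0.09 for Srf-null against wild-type, -0.07 for rescue against wild-type and 0.02 for rescue against Srf-null over 10 to 180 min, near the median of all probe sets. Hexokinase 1 (Hk1) gave 0.21 ± 0.15 and 0.05 ± 0.15 against wild-type, and triosephosphate isomerase (Tpi1) 0.28 ± 0.31 and 0.43 ± 0.31, for Srf-null and rescue. Ldhb, the heart-type lactate dehydrogenase subunit, gave -0.70 ± 0.21 in Srf-null against wild-type and 0.87 ± 0.21 in rescue against Srf-null (adjusted p = 0.264 and 0.0924). These 3 were chosen after their values were seen.

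Of 28 further hypoxia genes, 22 were measured and 21 tested, and 0 were called in 252 tests, with 28 tests (11.1%) at an unadjusted p under 0.05 by limma, against the same 8.03%. Over 10 to 180 min 7 of 21 were under 0.05 unadjusted in Srf-null against wild-type, 4 higher and 3 lower, where 12.1% of all probe sets were, and 5 of 21 in rescue against wild-type, 4 higher and 1 lower, where 9.85% were. Medians were 0.03 and 0.00. In Srf-null cells the higher ones were Bnip3, Epo, Ero1a and Ndrg1, and the lower ones Bhlhe40, Hif1a and Igfbp3. In rescue cells the higher ones were Bnip3, Ero1a, Ndrg1 and P4ha1, and the lower one Hif1a. Named after their values were seen, Bnip3, a mitophagy gene, gave 1.19 ± 0.27 in Srf-null and 0.98 ± 0.27 in rescue against wild-type (adjusted p = 0.147 and 0.255), and Ndrg1, a stress-response gene, 0.996 ± 0.37 and 1.07 ± 0.37 (adjusted p = 0.343 and 0.355). P4ha1, a collagen prolyl hydroxylase, gave 0.33 ± 0.24 and 0.76 ± 0.24. Hif1a, the oxygen-regulated subunit of HIF-1, gave -0.28 ± 0.07 and -0.23 ± 0.07 (adjusted p = 0.184 and 0.321), and Vegfa was above the floor on 6 of 15 arrays.

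Of 14 genes of the pentose phosphate pathway and gluconeogenesis, 12 were measured, 10 were tested and 0 were called in 120 tests, with 11 tests (9.17%) at an unadjusted p under 0.05 by limma. Medians over 10 to 180 min were 0.08, 0.19 and -0.05 for Srf-null against wild-type, rescue against wild-type and rescue against Srf-null. Of 20 adenylate kinase genes and genes around Ddit4 and mTORC1, 11 were measured and 9 tested. Cdkn1a, the cell-cycle inhibitor p21, rose in rescue against Srf-null cells over 10 to 180 min (1.23 ± 0.22, adjusted p = 0.0322 by limma), the 1 call in 108 tests. In that comparison it was 1 of 9 genes tested, against 2.25% of all probe sets. Its signal was 1132, 949, 1304 and 1063 in wild-type, 824, 1211, 622 and 1217 in Srf-null and 2202, 1974, 1881 and 2804 in rescue cells from 10 to 180 min, with rescue above all others. At 0 min Cdkn1a was 238 in wild-type, 1089 in Srf-null and 658 in rescue cells, so rescue lay below Srf-null. Over 15 arrays 0 of 9 list genes were called in this contrast, against 0.22% of all probe sets. Whether the Cdkn1a call holds without single arrays was not tested. Ak1, the cytosolic adenylate kinase, gave 0.84 ± 0.17 in rescue against wild-type and 0.56 ± 0.17 against Srf-null (adjusted p = 0.107 and 0.167), and Ddit3, a stress-response factor, 1.56 ± 0.63 and 1.20 ± 0.63, both named after their values were seen.

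**Figure D4:**
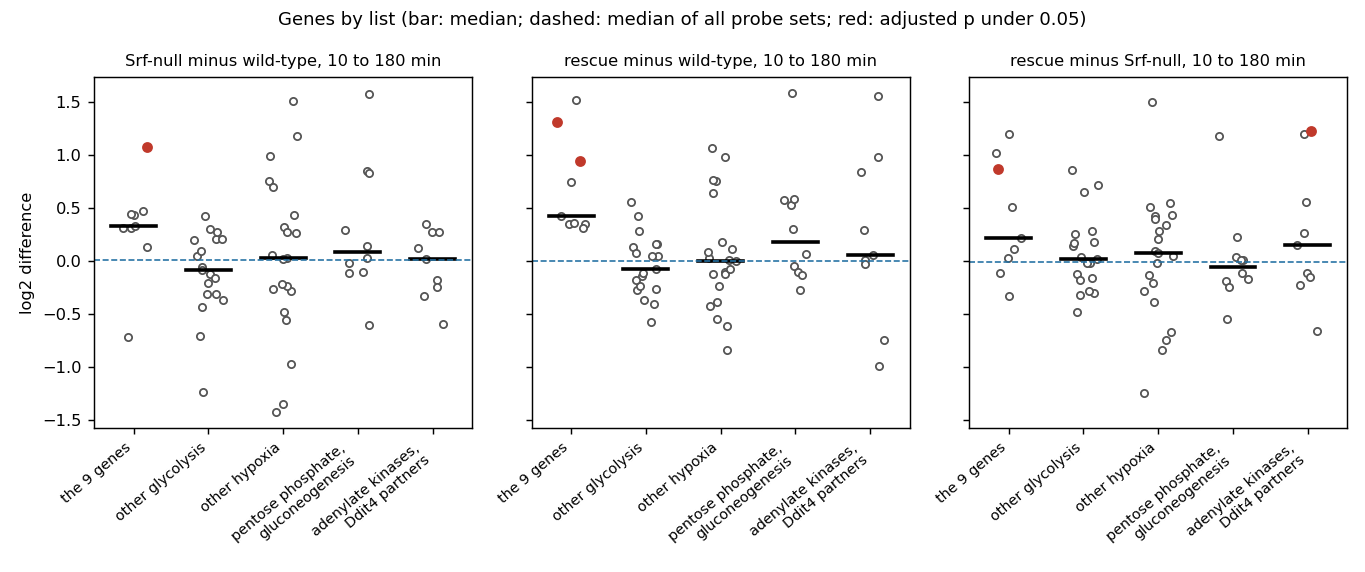
Difference between lines (log2) over 10 to 180 min for the tested genes of each list, 1 point per gene, with a bar at the median, a dashed line at the median of all probe sets and red for an adjusted p under 0.05. The medians of the 9 genes are 0.33, 0.43 and 0.22, and those of the other glycolysis genes -0.09, -0.07 and 0.02. The genes and lists were chosen with earlier results of these data known.

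The genes whose log2 signal over the 15 arrays was most like the mean of the 9 standardized profiles, among 6748 genes, were the RNA helicase gene Ddx1 (r = 0.88), the peptidase gene Nrd1 (r = 0.87), the uridine phosphorylase gene Upp1 (r = 0.87), the autophagy kinase gene Ulk1 (r = 0.86) and the RNA helicase gene Ddx17 (r = 0.85). These are descriptions over arrays that share lines and quality. The mean profile, in standard deviations, was lowest in wild-type cells at 180 and 0 min (-1.37 and -1.30) and highest in rescue cells at 30 min (1.11). All 5 wild-type arrays were below 0, the 4 rescue arrays from 10 min on were above it, and the rescue 0 min array was at -0.30.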

How the data were processed

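Per the labels, total RNA of 15 ES cell samples was hybridised to Affymetrix MGU74A arrays. The authors deposited linear intensity values for 12654 probe sets, of which 66 were controls. Software and scaling are not stated (not given in the sources used here). Between 24.9% and 41.6% of deposited values per array were 0 or negative, and trimmed means ran from 350 to 1439. The number of arrays limits the precision.

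Values were quantile-normalized between arrays and set to a floor at the 40th percentile (84.98, log2 6.41), then log2 was taken. Differences of signals near the floor are understated. The filter kept 9558 probe sets that exceeded the floor on 2 or more arrays. Names came from the platform annotation (10276 probe sets with 1 symbol, 363 with several and 1993 not listed), with symbols updated through RefSeq. Groups came from sample titles.

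Lines were compared in limma 3.58.1 (R 4.3.3; lmFit, eBayes with an intensity trend) with additive terms for line and time (8 residual degrees of freedom, or 6 without 0 min), and serum responses between phases of each line (6 degrees). The threshold for a call was 0.05 after Benjamini-Hochberg adjustment over all probe sets. The fits were tested on simulated data. All 13 probe sets of the 9 genes are named. From the lists, called genes are named, others only where said. Lists read each gene by its brightest probe set. The genes, lists and tests were chosen with earlier results of these data known. Alternatives changed the normalization, floor, filter, trend, time term, quality covariates, baseline and arrays used, and 1 of them was added after seeing the data.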

Additional observations from a re-analysis of the deposited data

Results flagged for a closer look

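In each line, the gap of the highest or lowest of 5 arrays to its nearest neighbour was divided by the range, both in log2. The ratio was set against Dixon's critical value of 0.71, and levels are printed below as intensities. Of 39 groups (13 probe sets in 3 lines) 6 passed it, where chance passes about 1 in 20, and each group mixes time points. The lowest Slc2a1 array of rescue cells was 0 min (2287, ratio 0.874), and so was the lowest Ak4 array by the main probe set of rescue cells (1045, ratio 0.789). The second probe set of Slc2a3 was lowest at 0 min in wild-type (103, ratio 0.747) and in Srf-null cells (at the floor, ratio 0.843). The main one was highest at 30 min in Srf-null cells (11611, ratio 0.813), and the main probe set of Pfkp lowest at 180 min in Srf-null cells (2257, ratio 0.741). Among the arrays concerned, wild-type 0 min, rescue 0 min and Srf-null 0 min have actin ratios of 7.53, 4.22 and 2.94, and their part was not tested.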

How the results depend on the processing

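Over the alternatives, single probe sets of the 9 genes kept direction and side of the threshold in 3566 values, missed a threshold they had passed in 99, passed it newly in 14 and turned in 1, where values within 1 standard error of 0 count as having no direction. The 1 that turned was the second probe set of Slc2a3 in the early response with 10 min alone as baseline (-0.35 in place of 1.16). The called differences of Pfkp, Slc2a1, Ak4 and Ddit4 kept their sign in all 22 or 25 settings, but most of these settings lost the call. The 99 all come from these differences. For Pfkp in Srf-null against wild-type, 19 (main probe set) and 17 (second) of 22 settings lost it. For Slc2a1 in rescue against wild-type, 16 of 22 did. For Ak4 in rescue cells it was 12 of 22 against wild-type and 16 of 22 against Srf-null. For Ddit4 over 15 arrays it was 19 of 25.

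Calls among the 13 probe sets moved as follows. With a common median or with values as deposited, 0 were called in every comparison. Over 10 to 180 min, Srf-null against wild-type (2 calls) gave 0 without a filter, without an intensity trend, and with the non-positive share or the 18S signal as a term, and 1 with the floor at the 35th percentile. Rescue against Srf-null (1 call) gave 0 without a filter, without a trend and with the non-positive share as a term, and 2 with the floor at the 60th percentile, with 8 arrays above the floor and without a time term. Rescue against wild-type (2 calls, of Slc2a1 and Ak4) gave 1, that of Ak4, without a filter, without a trend and with the non-positive share, and 1, that of Ddit4, with the 18S term. It gave 3, Ddit4 passing newly, with the floor at the 60th percentile, with 8 arrays above the floor and without a time term. Over 15 arrays, rescue against Srf-null (1 call) gave 0 without a filter, a trend or a time term and with either quality term. Rescue against wild-type (0 calls) gave 1 with the floor at the 60th percentile and with 8 arrays above the floor. Leaving out 1 array gave 0 to 2 calls for Srf-null against wild-type, 0 to 1 for rescue against Srf-null and 0 to 1 for rescue against wild-type over 15 arrays, and 0 to 1, 0 to 1 and 0 to 2 over 10 to 180 min. The causes were not tested.

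Calls over all probe sets moved too, from 31 to between 1 and 91, from 215 to between 8 and 257 and from 38 to between 0 and 60 over 10 to 180 min (same order), and from 21 to between 0 and 103 for rescue against Srf-null over 15 arrays. The planned floor at the 20th percentile was not run, since that value is -102, below 0; the 35th percentile was tried in its place after seeing the data.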
